A study of Mus musculus with 15 samples.

Results

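The ribosomal protein genes of mouse embryonic stem cells were described across 5 groups of a single-colour microarray study. They were chosen by name alone: every non-control probe whose transcript record maps to a symbol made of Rpl or Rps and digits, or to Rplp0, Rplp1, Rplp2 or Rpsa, with the Rps6k kinases, Rps19bp1 and pseudogenes left out. This gave 87 genes out of 21368 genes with a symbol, on 175 of 55681 probes. Of the 87, 42 encode large subunit proteins, 31 small subunit proteins and 3 the stalk proteins, and these 76 are called core members below. Another 9 are paralogs, that is, further genes for nearly the same protein, and 2, Rpl32l and Rps23rg1, are other copies. All 87 genes passed the filter on dim probes.

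The groups, with 3 arrays each, were Nat1-null cells carrying a tetracycline-inducible Map3k3 transgene grown with doxycycline (Dox), Nat1-null cells carrying an inducible EGFP transgene grown with Dox, the Map3k3 cells grown without Dox, Nat1-null cells with no transgene named, and wild-type cells. All groups but the wild-type cells therefore lacked the gene that the labels call Nat1. All were grown in standard embryonic stem cell medium on gelatin. The labels name neither the promoter of the transgenes nor the number of clones, nor the length of the Dox treatment, and nothing in them tells whether the 3 samples per group came from separate cultures, so the p-values rest on a spread that may be technical. Nat1 is the older name used in the labels for Eif4g2, which encodes a protein related to the initiation factor eIF4G. The comparisons ask how the ribosomal protein genes differ without this gene and, in its absence, with Map3k3, a kinase upstream of MAP kinase pathways.

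Ribosomal proteins join ribosomal RNA in the nucleolus to build the large and the small ribosomal subunit, and most are needed in equal amounts, so their genes are usually expressed together at high level in growing cells such as embryonic stem cells. Their mRNAs begin with a terminal oligopyrimidine (TOP) tract, through which their translation follows mTOR signalling. Several core genes have a paralog with a more restricted expression, in testis or muscle for example.

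Values are the authors' processed signals, expressed as log2 relative to the 75th percentile of the array, so a level of 0 is the signal of the probe at that percentile. Levels of different probes are not comparable. A gene was called, and is said below to have risen or fallen, when limma's adjusted p was under 0.05 and the difference was at least 1.5-fold; higher and lower are used for differences that passed the adjusted p with no fold minimum. Differences are log2 values, the first group named minus the second. The 15 arrays had a 75th percentile of 494.2 to 613.6 units, 42.7 to 53.9% of their probes were well above background, and the arrays of a group correlated at 0.986 or more across genes. Eif4g2 read 1.71 ± 0.19 in Nat1-null cells and 4.31 ± 0.15 in wild-type cells (SD, n = 3 each), and 1.56 to 1.62 in the means of the 3 transgene groups. The Map3k3 probe differed by 0.18 between Map3k3 cells with and without Dox (limma, adjusted p = 0.236), and since it is not known if this probe can read the transgene's transcript, no check of the induction was had. The 7 embryonic stem cell markers were above background in all groups. Their summed linear signal, in multiples of the 75th percentile, was 520.1 to 546.2 in Map3k3 cells with Dox, 725.4 to 787.4 in the other 3 null groups and 340.2 to 355.0 in wild-type cells. The 6 trophectoderm markers summed to 322.1 to 383.7 in Map3k3 cells with Dox, 7.05 to 19.7 in the other 3 null groups and 173.5 to 177.9 in wild-type cells. In those 3 null groups Cdx2 was not above background, nor was Gata3 in the EGFP cells and the Map3k3 cells without Dox. The 4 measured fibroblast markers summed to 1.28 to 1.68 in Map3k3 cells with Dox, 2.28 to 2.95 in the other 3 null groups and 29.2 to 31.5 in wild-type cells. Col1a2 and Acta2 were not above background in those 3 null groups. The 5 measured primitive endoderm markers summed to 0.903 to 0.965 in Map3k3 cells with Dox and 0.473 to 0.509 in wild-type cells. They summed to 0.154 to 0.225 in the other 3 null groups, where 3 or 4 of the 5 were not above background. These marker levels moved with the groups compared below, their part in the results was not tested, and in such bulk samples fewer cells of a type and less RNA per cell cannot be told apart.

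The largest differences among the 87 genes belonged to Rpl39l, the paralog of Rpl39 known for its expression in male germ cells. Its level was 0.22, 0.00 and 0.49 on the arrays of Map3k3 cells with Dox, 1.47, 1.80 and 1.95 in the EGFP cells with Dox, 1.39, 1.58 and 1.73 in Map3k3 cells without Dox, 1.77, 1.95 and 1.65 in Nat1-null cells, and 2.82, 2.82 and 2.98 in wild-type cells. The wild-type arrays were the highest of the 15 and the Map3k3 arrays with Dox the lowest, with the 3 other null groups between them and overlapping each other. Rpl39l fell 2.12-fold in Nat1-null against wild-type cells (log2 difference -1.08, SE 0.15, limma adjusted p = 4.75e-05). It fell 2.51-fold in Map3k3 cells with against without Dox (-1.33, SE 0.15, adjusted p = 2.83e-05) and 2.84-fold in Map3k3 against EGFP cells, both with Dox (-1.50, SE 0.15, adjusted p = 1.04e-05). These last comparisons share the Map3k3 arrays with Dox. In Map3k3 cells with Dox against wild-type cells the fall was 6.23-fold (-2.64, 95% interval -2.97 to -2.31, adjusted p = 3.15e-08). The neighbours in the middle of the order did not differ beyond their spread: EGFP cells with Dox against Nat1-null cells gave -0.05 (95% interval -0.38 to 0.28) and Map3k3 cells without Dox against Nat1-null cells -0.23 (-0.56 to 0.10).

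Rpl39, the canonical partner of Rpl39l, was called in no comparison. It read 7.82, 7.82 and 7.81 in Map3k3 cells with Dox, 8.16, 8.08 and 8.26 in the EGFP cells with Dox, 8.03, 7.95 and 8.24 in Map3k3 cells without Dox, 8.22, 8.13 and 8.18 in Nat1-null cells and 7.83, 7.90 and 7.99 in wild-type cells. Where Rpl39l fell in Nat1-null cells, Rpl39 was higher by 0.27 (SE 0.08, limma adjusted p = 0.0102), and in Map3k3 cells with Dox it was lower than in EGFP cells by a log2 difference of -0.35 (adjusted p = 0.00385), both under 1.5-fold. Set against the median of the 76 core members in the same comparison, which a shift of a whole array cannot move, Rpl39l lay at -1.27 in Nat1-null against wild-type cells, -1.15 in Map3k3 cells with against without Dox, -1.28 in Map3k3 against EGFP cells and -2.56 in Map3k3 cells with Dox against wild-type cells. The wild-type arrays lay on slide 1 in row 1 and the Nat1-null arrays on slide 1 in row 2, so row and group cannot be told apart from these 6 arrays; with row as a block, estimated through the other groups, the difference was -0.94 (limma, adjusted p = 0.00464). Within slide 2, which held all Map3k3 arrays and 2 of the 3 EGFP arrays, the differences were -1.33 with against without Dox and, against the EGFP arrays, -1.40. Wild-type and Map3k3 arrays lay on different slides, and only the EGFP group spanned both, through its replicate 3 on slide 1. With slide as a block, estimated from that array against the other EGFP arrays, Map3k3 cells with Dox against wild-type cells gave -2.33 (limma, adjusted p = 6.58e-05).

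**Figure D1:**
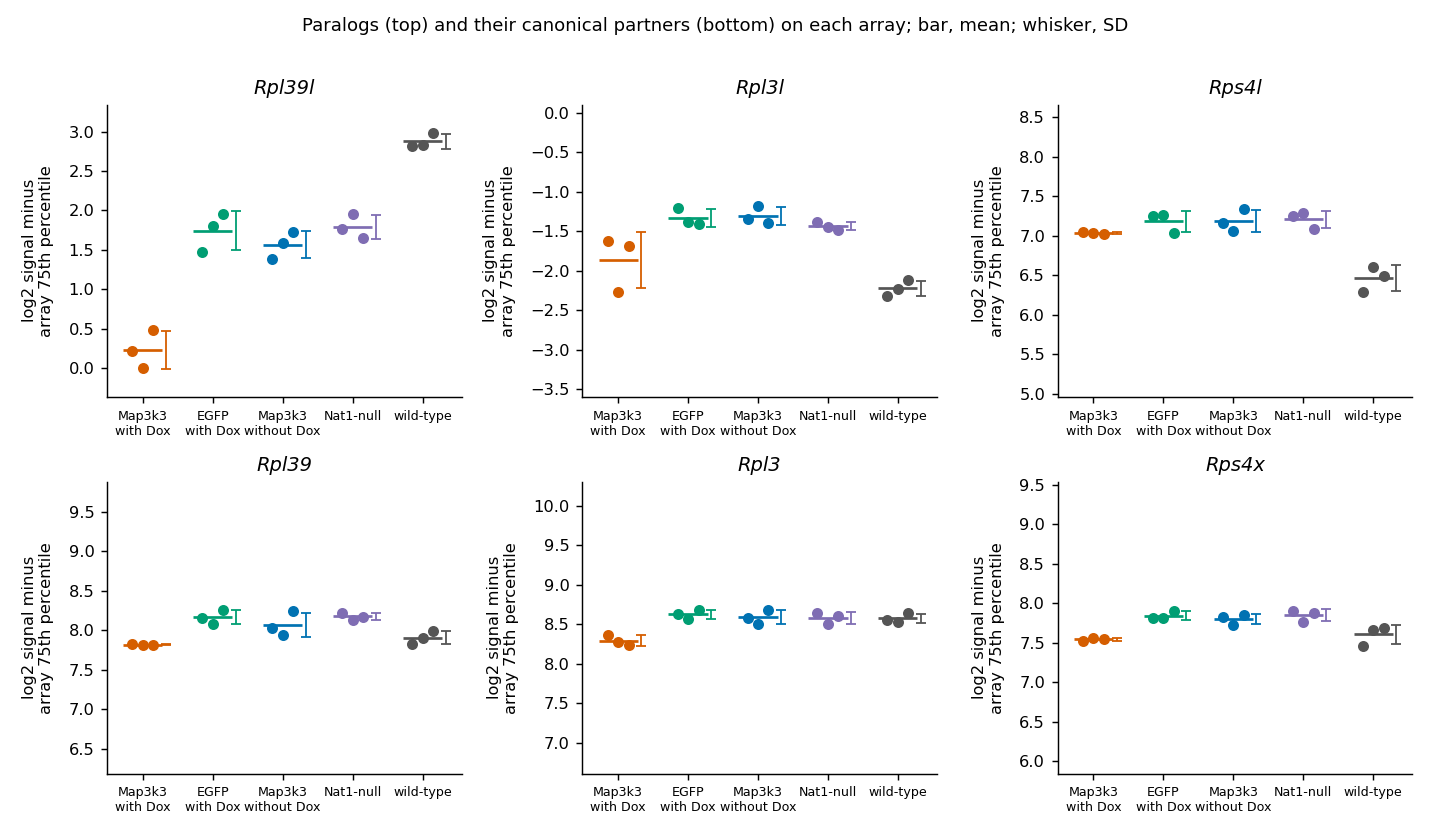
Level on each array (log2 signal minus the array's 75th percentile, y axis, each panel spanning the same log2 range) of 3 paralogs in the top row and their canonical partners in the bottom row, by group; points are arrays, bars means and whiskers SD (n = 3). Rpl39l averages 0.24 in Map3k3 cells with Dox, 1.57 to 1.79 in the other null groups and 2.88 in wild-type cells, while the partners Rpl39, Rpl3 and Rps4x differ by less than 1.5-fold between all groups compared.

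Rpl3l and Rps4l were the other called members, both in Nat1-null against wild-type cells only. Rpl3l, the paralog of Rpl3 known from heart and skeletal muscle, was dim but above background on every array. It read -1.63, -2.27 and -1.69 in Map3k3 cells with Dox, -1.20, -1.39 and -1.41 in the EGFP cells with Dox, -1.34, -1.17 and -1.40 in Map3k3 cells without Dox, -1.38, -1.45 and -1.48 in Nat1-null cells and -2.31, -2.23 and -2.12 in wild-type cells. The Nat1-null and wild-type arrays did not overlap, and Rpl3l rose 1.72-fold (0.79, SE 0.14, limma adjusted p = 0.000406). In Map3k3 cells with Dox it was lower than without Dox by a log2 difference of -0.56 (adjusted p = 0.00835) and lower than in EGFP cells by -0.53 (adjusted p = 0.0104), under the fold minimum. Replicate 2 of the Map3k3 cells with Dox lay lowest, and without it these differences were -0.35 and -0.33. Without replicate 1 of the same group they were -0.67 and -0.65 and without replicate 3 they were -0.64 and -0.62, and Rpl3l was then called in both comparisons; without replicate 3 of the cells without Dox the first was -0.60 and also called. Rpl3 itself differed by 0.01 (SE 0.07) in Nat1-null against wild-type cells.

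Rps4l is an autosomal copy of the X-linked Rps4x, and the transcript record of its probe is a non-coding one. Its level was 7.05, 7.04 and 7.03 in Map3k3 cells with Dox, 7.26, 7.27 and 7.03 in the EGFP cells with Dox, 7.17, 7.06 and 7.34 in Map3k3 cells without Dox, 7.25, 7.30 and 7.09 in Nat1-null cells and 6.29, 6.61 and 6.50 in wild-type cells. All 12 arrays of the null groups lay above the 3 wild-type arrays. Rps4l rose 1.68-fold in Nat1-null against wild-type cells (0.75, SE 0.10, limma adjusted p = 4.30e-05), and under quantile normalization the difference of 0.58 lay just under the fold minimum. In Map3k3 cells with Dox against wild-type cells it was higher by 0.57 (adjusted p = 0.000354), just under the minimum, and without replicate 2 or replicate 3 of the wild-type cells it was called, at 0.65 and 0.59. Rps4x was higher by 0.24 in Nat1-null against wild-type cells (adjusted p = 0.0107). A probe for a paralog can also bind the transcripts of its partner and of processed copies elsewhere in the genome, which these arrays cannot separate.

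The other 6 paralogs were called in no comparison. In Nat1-null against wild-type cells 4 of them were higher: Rpl7l1, the paralog of Rpl7, by 0.54 (limma adjusted p = 0.00266), Rps27l, known as a p53-responsive paralog of Rps27, by 0.33 (adjusted p = 0.00547), Rpl22l1, whose partner Rpl22 is known to repress it, by 0.29 (adjusted p = 0.00478), and Rpl37rt, a copy of Rpl37, by 0.25 (adjusted p = 0.0124). Without replicate 2 of the Nat1-null cells Rpl7l1 differed by 0.62 and was called. Of their partners, Rpl7 gave 0.34 (adjusted p = 0.0183), Rps27 0.26 (adjusted p = 0.00403) and Rpl22 0.29 (adjusted p = 0.101), and Rpl37 was not analysed here. Rpl36al, the autosomal copy of Rpl36a, differed by -0.10 in Nat1-null cells (adjusted p = 0.256) and was lower by -0.42 in Map3k3 cells with Dox against wild-type cells (adjusted p = 0.000365), where Rpl36a gave -0.14 (adjusted p = 0.103). Rpl10l, a copy of the X-linked Rpl10 known from spermatogenesis, had the widest spread of all members, with an SD of 0.82 over the Nat1-null arrays, and none of its differences passed the test.

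Promoter sequence was available for 66 of the 87 genes. The stretch around the start is shown for Rpl39l and its partner Rpl39, for Rpl3l, and for the core members Rpl31 and Rpl26. In Nat1-null against wild-type cells Rpl31 was higher and Rpl26 lower. Each stretch runs from 60 bases before to 30 bases after the annotated start, 5′ to 3′ on the gene's strand, from RefSeq on GRCm38.p6. Capitals mark CCGGAA or its reverse complement TTCCGG, the core of the sequence bound by GABP and other ETS factors. The windows are chr16:10170168-10170257 (+) for Rpl39l, chrX:37085193-37085282 (-) for Rpl39, chr17:24727766-24727855 (+) for the first of 2 starts of Rpl3l, chr1:39367791-39367880 (+) for Rpl31 and chr11:68901506-68901595 (+) for Rpl26. For Rpl39l the start is that of the promoter table, which lies downstream of the outermost start RefSeq gives the gene; for the others both are the same.
Rpl39l: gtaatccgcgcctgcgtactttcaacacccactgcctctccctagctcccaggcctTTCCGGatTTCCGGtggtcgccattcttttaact
Rpl39: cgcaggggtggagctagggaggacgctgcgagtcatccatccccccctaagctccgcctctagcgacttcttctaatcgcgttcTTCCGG
Rpl3l: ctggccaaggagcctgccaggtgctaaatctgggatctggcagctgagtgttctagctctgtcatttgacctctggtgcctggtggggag
Rpl31: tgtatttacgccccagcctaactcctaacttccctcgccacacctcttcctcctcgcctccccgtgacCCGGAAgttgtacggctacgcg
Rpl26: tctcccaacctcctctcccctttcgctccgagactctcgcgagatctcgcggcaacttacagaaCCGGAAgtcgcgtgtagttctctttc
Rpl39l held 2 matches in this window, Rpl39, Rpl31 and Rpl26 held 1 each, and Rpl3l held none. Over windows from 250 bases before to 50 bases after the start, searched on both strands, 48.5% of the 66 windows of 56 core members held the motif, against 14.9% of all 32851 windows in the table. The 31 core members with a match and the 25 without had medians of 0.19 and 0.20 in Nat1-null against wild-type cells, and of -0.23 and -0.24 in Map3k3 against EGFP cells. A match is a description of the letters and not of a factor's binding.

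None of the 76 core members was called by limma in Nat1-null against wild-type cells, where 40 had an unadjusted p under 0.05. The share of all genes under that unadjusted p was not counted, here or in the comparisons below. It is at least the share that passed the adjusted p with no fold minimum, 63.1% in this comparison. Over all members 2 rose and 1 fell, which is 3.45% of 87, against 37.9% of the 14441 genes tested, of which 17.3% rose and 20.5% fell. The core members lay between -0.28 (Rpl7a) and 0.49 (Rpl31), and the 95% interval of 69 of the 76 lay inside 1.5-fold either way. With no fold minimum 39 members were higher and 4 lower, against 34.8% higher, 28.3% lower and 63.1% in either direction of all genes tested. These counts depended on the setting, as did the shares of all genes. Quantile normalization gave 8 higher and 14 lower, against 30.4% and 31% of all genes. Spike-in scaling gave 4 and 6, against 20% and 29.9%, and row as a block 12 and 2, against 26.7% and 21%. Without replicate 1 of the Nat1-null cells they were 25 and 3, against 31.1% and 26.1%. Among the core members 33 were higher and 3 lower. By subunit these were 18 higher and 2 lower of 42 large subunit genes, 13 higher and 1 lower of 31 small subunit genes, and 2 of the 3 stalk genes, Rplp1 by 0.28 and Rplp2 by 0.23. The stalk proteins recruit elongation factors to the ribosome, and Rplp0, their anchor, differed by 0.15 (limma, adjusted p = 0.171). There was no overlap between the arrays of these groups for 62 of the 87 members, against 71.9% of all genes tested.

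Rpl31, a protein at the exit of the large subunit's peptide tunnel, was the highest core member. It read 8.41, 7.98 and 8.46 in Nat1-null cells and 7.75, 7.81 and 7.80 in wild-type cells, a difference of 0.49 (SE 0.17, limma adjusted p = 0.0230) that its other probe gave as 0.45. Replicate 2 was the lowest Nat1-null array, and without it the difference was 0.65 and Rpl31 was called. Among the lower core members were Rpl26, by -0.22 (limma, adjusted p = 0.0288), and Rps27a, by -0.19 (adjusted p = 0.0366). Rpl26, known to bind p53 mRNA, read 8.44, 8.31 and 8.43 in Nat1-null cells and 8.60, 8.55 and 8.70 in wild-type cells, without overlap and in the same direction by all 3 of its probes. These core members and those named for the comparisons that follow were picked after their values were seen. Rps27a encodes ubiquitin fused to a small subunit protein, and its other 2 probes gave 0.17 and 0.59, the last of which was called. Rps3 was missing on 1 wild-type array, so its difference rests on 2 of those arrays.

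**Figure D2:**
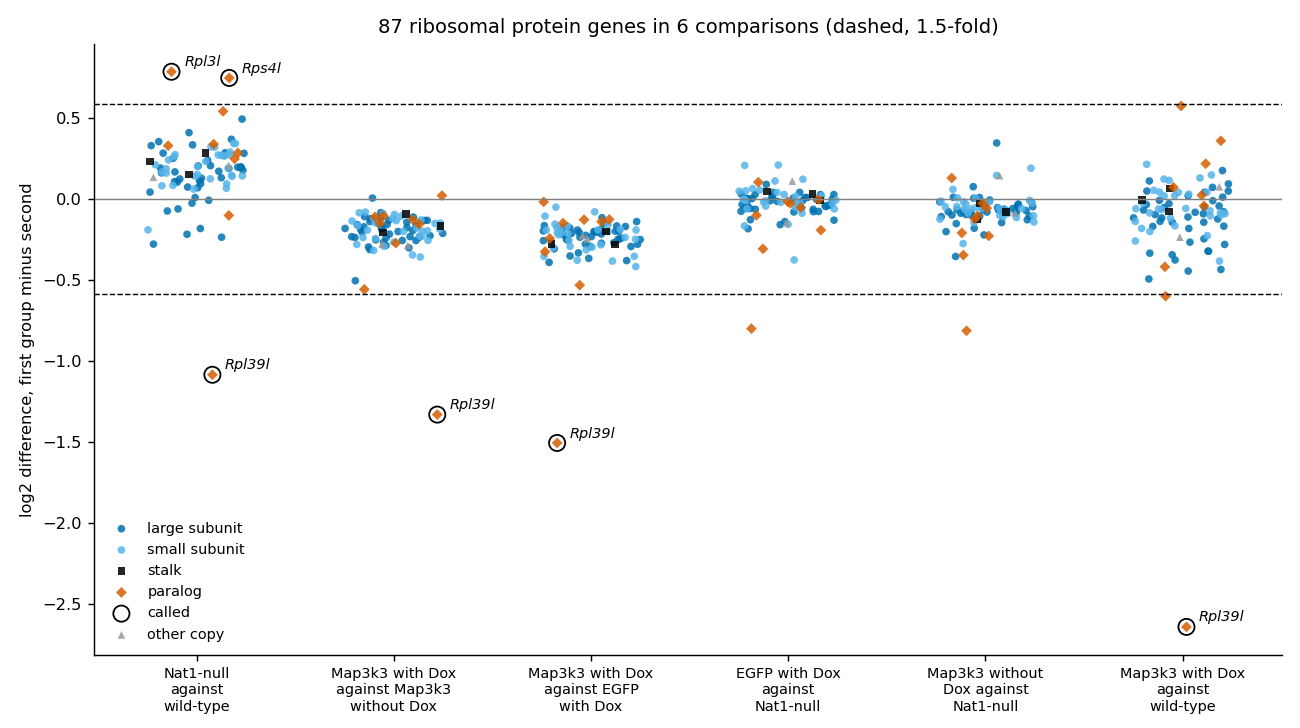
Log2 difference of each of the 87 genes (y axis) in 6 comparisons (x axis), the first group named minus the second; symbols give the kind of gene, dashed lines 1.5-fold, circles called genes. Core members stay between the dashed lines in all 6 comparisons, and Rpl39l is the lowest gene in each of the 4 comparisons where it is circled.

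Within the null background, Map3k3 cells with Dox against those without Dox gave 1 called member, Rpl39l, which is 1.15% of 87, against 17.9% of all genes tested, 5.59% lower. None of the core members was called by limma, and 39 had an unadjusted p under 0.05. With no fold minimum no member was higher and 32 were lower, 27 of them core members, against 18% higher, 21.8% lower and 39.8% in either direction of all genes. The 32 became 8 under quantile normalization, against 19.5% of all genes lower, and 1 under spike-in scaling, against 5.24%. They became 13 with row as a block, against 14.6%, and 9 with only the compared groups in the fit, against 13.8%. With 1 array left out 11 to 45 were lower. The 11 came without replicate 3 of the cells without Dox, against 17.4%, and the 45 without their replicate 2, against 19.2%. With replicate number as a block 40 were lower, against 26.6% of all genes. The arrays did not overlap for 55 members, against 50.1% of all genes. Of 76 core members 75 had a negative difference, the exception being Rpl9 at 0.01. The lowest was Rpl7a, which read 7.92, 7.26 and 7.62 in Map3k3 cells with Dox and 8.12, 8.03 and 8.16 without, a difference of -0.50 (SE 0.16, limma adjusted p = 0.0232) that was -0.66 and called without replicate 1 of the Map3k3 cells with Dox, and -0.33 without replicate 2. Rps27, a zinc finger protein of the small subunit, followed with 8.73, 8.77 and 8.80 with Dox and 9.12, 9.03 and 9.21 without, a difference of -0.36 (SE 0.07, adjusted p = 0.00112).

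Against EGFP cells, which carry another transgene and were also given Dox, the same Map3k3 arrays gave the same count: Rpl39l was called, against 18.1% of all genes, 5.67% lower. No core member was called by limma, and 59 had an unadjusted p under 0.05. With no fold minimum 51 members were lower, 45 of them core members, and none was higher, against 23.5% lower, 18% higher and 41.5% in either direction of all genes. The 51 became 10 under quantile normalization, against 19% of all genes lower, and 1 under spike-in scaling, against 5.64%. They became 28 with slide as a block, against 18.9%, and 19 with only the compared groups in the fit, against 13.5%. With 1 array left out 27 to 53 were lower. The 27 came without replicate 1 of the EGFP cells, against 19%, and the 53 without their replicate 2, against 21.8%. Leaving out replicate 3 of the EGFP cells, their only array on slide 1, gave the same 28 by construction, since the slide block rests on that array. With replicate number as a block 59 were lower, against 28.4% of all genes. The arrays did not overlap for 66 members, against 49.3% of all genes. All 87 differences were negative, and the lowest core member was Rps27 at -0.42. Rps27 read 9.17, 9.12 and 9.26 in EGFP cells, above all 3 Map3k3 arrays (SE 0.07, limma adjusted p = 0.000363). Rps18, at the head of the small subunit, was lower by -0.38 (adjusted p = 0.000372). Of the stalk genes Rplp0 and Rplp1 were lower, by -0.28 each (adjusted p = 0.0325 and 0.0144), and Rplp2 gave -0.20 (adjusted p = 0.0769). Slide 2 alone, with 2 EGFP arrays, gave a median of -0.21 over the members.

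The comparisons of Nat1-null with wild-type cells and of Map3k3 with EGFP cells share no array. Of the 39 members higher in Nat1-null cells, 27 (69.2%) were also among the 51 lower in Map3k3 cells, which is 52.9% of those 51, where 58.6% of all 87 members were lower. Gene by gene the sizes did not mirror each other: across the 76 core members, which share their arrays within each comparison and are not independent, Pearson's r between the comparisons was -0.19 and Spearman's rho -0.24.

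The EGFP cells with Dox and the Map3k3 cells without Dox were each set against the Nat1-null cells, which they share. In EGFP cells with Dox against Nat1-null cells limma called no member, against 0.00692% of all genes, and 3 of 87 had an unadjusted p under 0.05. In Map3k3 cells without Dox against Nat1-null cells it called none of the members or of the other genes (0%), and 7 members had an unadjusted p under 0.05. The arrays did not overlap for 7 members in EGFP cells, against 11.6% of all genes, and for 8 in Map3k3 cells without Dox, against 21.1%. The highest core member was Rps2 at 0.21 in EGFP cells with Dox, and the core members lay between -0.35 (Rpl5) and 0.35 (Rpl7a) in Map3k3 cells without Dox. The 95% intervals of 74 and 72 of the 76 core members, in that order, lay inside 1.5-fold.

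Map3k3 cells with Dox against wild-type cells gave a core median of -0.08. Rpl39l was again the one member called, against 38.3% of all genes, 19.9% lower. No core member was called by limma, and 20 had an unadjusted p under 0.05. With no fold minimum 3 members were higher, Rps4l, Rpl3l and the small subunit gene Rps28, and 17 were lower, against 30.5% higher, 31.2% lower and 61.7% in either direction of all genes. Of the 17, 12 were large subunit genes. The groups lie on different slides, and only the EGFP group spans both, through its replicate 3 on slide 1. With slide as a block, estimated from that array, 1 member was higher and 3 were lower, against 20.6% and 17.8% of all genes. The median over the members was then -0.0037. Under spike-in scaling 28 were lower, against 33.8% of all genes, with a median of -0.21. Rpl26 read 8.08, 8.14 and 8.15 in Map3k3 cells with Dox, below all wild-type arrays, and gave -0.49 (SE 0.08, limma adjusted p = 0.000154). Rps27a gave -0.38 by its chosen probe (limma, adjusted p = 0.000581), and none of its probes was called here. Its other probes, positive in Nat1-null against wild-type cells, are not reported for the present comparison. Rpl7a gave -0.43 (adjusted p = 0.0291), and -0.59 without replicate 1 of the Map3k3 cells with Dox, when it was called. Rpl26 was also lower in Nat1-null cells, a comparison with the same wild-type arrays. No overlap was seen for 34 of 87 members, against 70.7% of all genes.

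The small shared shifts of the core members were followed array by array. Relative to each gene's mean over the 15 arrays, the median core member lay at -0.17, -0.16 and -0.11 in Map3k3 cells with Dox, 0.13, 0.01 and 0.13 in the EGFP cells with Dox, 0.04, -0.06 and 0.14 in Map3k3 cells without Dox, 0.15, 0.04 and 0.11 in Nat1-null cells and -0.10, -0.06 and -0.02 in wild-type cells. The Map3k3 arrays with Dox were below all others, and the wild-type arrays below all Nat1-null arrays. The 14441 genes tested moved the same way to a smaller extent, between -0.06 and 0.06. As medians of differences, the 87 members gave 0.19 in Nat1-null against wild-type cells where all genes gave 0.07, -0.18 in Map3k3 cells with against without Dox where all genes gave -0.07, and -0.22 in Map3k3 against EGFP cells where all genes gave -0.09. The 121 other genes as bright as the core members gave 0.16, -0.12 and -0.18 in these 3 comparisons, and 7.44%, 0.826% and 0.826% of them were called.

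**Figure D3:**
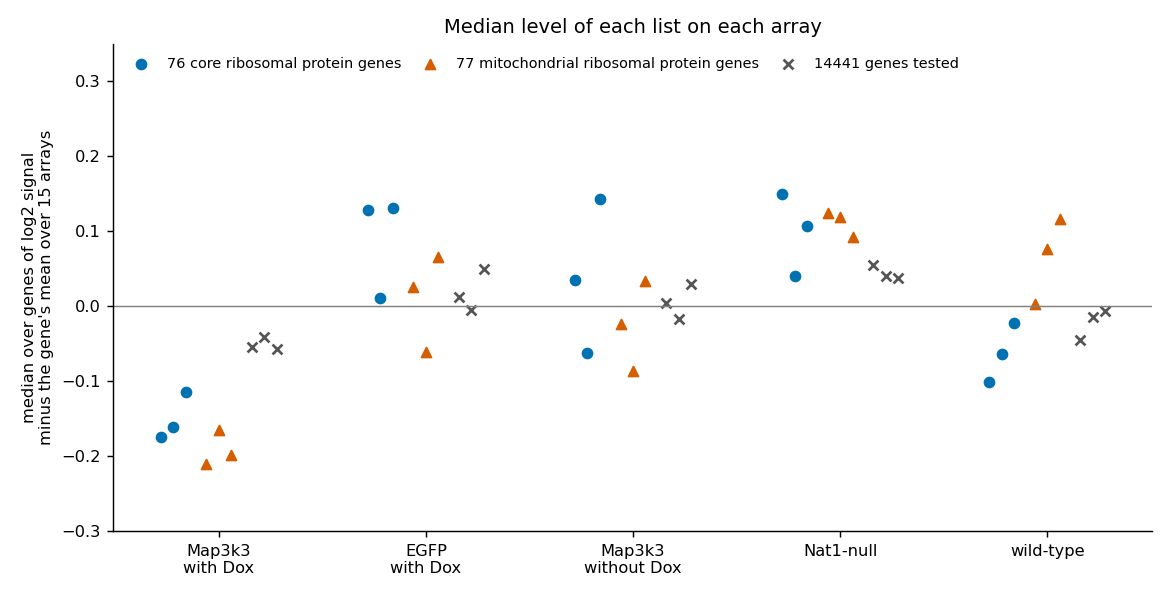
Median, over the genes of a list, of the log2 signal minus the gene's mean over 15 arrays (y axis), for each array by group (x axis); circles are the 76 core members, triangles the 77 mitochondrial ribosomal protein genes and crosses all genes tested. The Map3k3 arrays with Dox lie below 0 in all 3 sets, and the spread between arrays of a group reaches 0.21 for the core members of Map3k3 cells without Dox.

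How large these shifts were depended on how the arrays were scaled. Under quantile normalization the members' medians were 0.01, -0.04 and -0.04 in the same 3 comparisons, beside 0.01, -0.05 and -0.04 for all genes. With no fold minimum 8, 0 and 0 members were then higher, against 30.4%, 18.7% and 19.4% of all genes. Lower were 14, 8 and 10 members, against 31%, 19.5% and 19%. Scaling to the spike-in probes moved the median of all genes by -0.14, 0.12 and 0.12 and gave members' medians of 0.05, -0.06 and -0.10. Relative to all genes the members' medians were 0.12, -0.11 and -0.14 both with the 75th percentile and with the spike-in probes, since these scalings shift a whole array by a constant. In EGFP cells with Dox and in Map3k3 cells without Dox, each against Nat1-null cells, the members' median was -0.01 and -0.07 with the 75th percentile and changed sign under quantile normalization, to 0.02 in both. Rpl39l was called in all 18 alternative settings in each of its 4 comparisons. These include the main fit with no fold minimum, where a called gene stays called by construction.

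**Figure D4:**
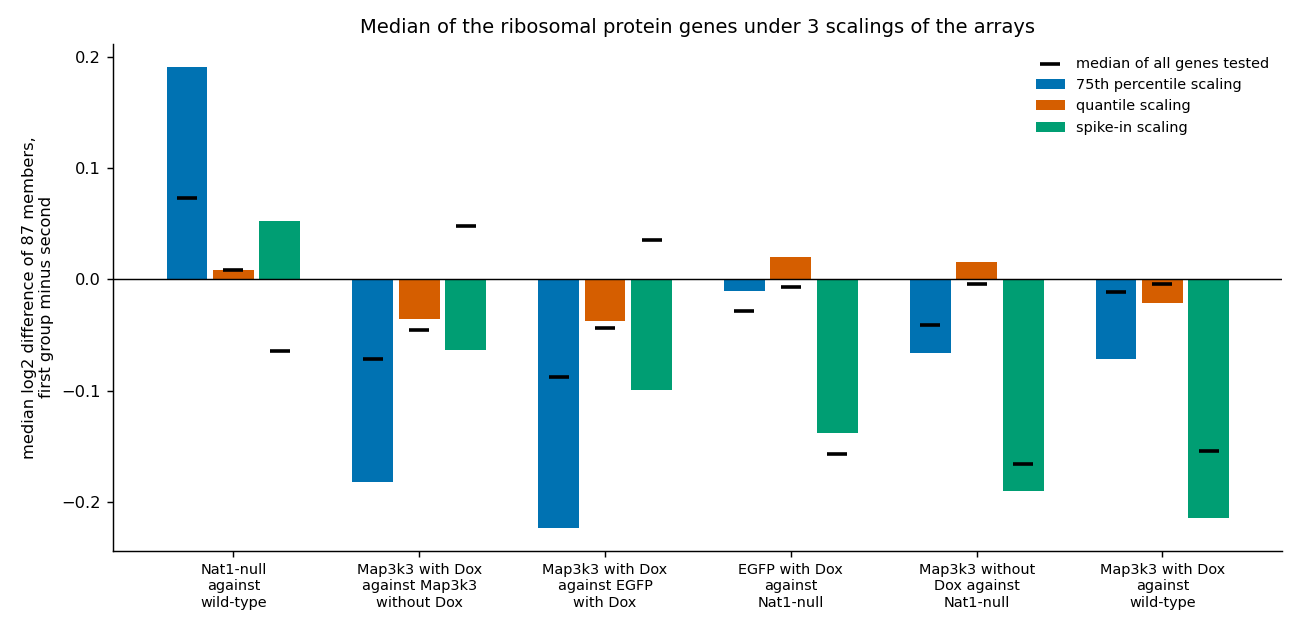
Median log2 difference of the 87 genes (bars, y axis) in 6 comparisons under 3 scalings of the arrays (colours), with the median of all genes tested as a black dash. Bars of 0.19, -0.18 and -0.22 under 75th percentile scaling shrink to 0.01, -0.04 and -0.04 under quantile normalization, and the bars of EGFP cells with Dox and Map3k3 cells without Dox against Nat1-null cells change sign between scalings.

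The members were bright: the mean signal of the core members ranged from 52510 units (Rps21) to 438932 units, and the brightest value, 472949 units for Rps27a, was 60.8% of the scanner's saturation value. Of the 175 probes 173 passed the filter, and 52 genes had several passing probes. Probes of a gene usually gave like differences, with a median range of 0.11 in Nat1-null against wild-type cells. No gene had probes called in opposite directions, but in that comparison the chosen probe of Rps27a was lower, under the fold minimum, while another was called as risen. The widest range there was 1.05 for Rpl17, for which 1 of 7 probes gave 1.16 and the chosen one 0.13. For Rpl23 1 of 3 probes gave -0.71 and the chosen one 0.11, so a call for either gene would rest on the probe taken. In this comparison single probes of 4 core members were called (Rpl17, Rpl21, Rpl23 and Rps27a), and in Map3k3 cells with Dox against wild-type cells those of Rpl23, Rpl26 and Rpl27, while the brightest probe of none of these genes was.

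Other parts of the ribosome pathway were counted from lists of gene names. Fau and Rack1, ribosomal protein genes named otherwise, had no call by limma in any comparison. Nor had any of the 14 measured TOP mRNA genes for elongation factors and the like. With no fold minimum 4 TOP genes were higher and 1 lower in Nat1-null against wild-type cells. Of all genes 34.8% were higher and 28.3% lower there. Of 77 mitochondrial ribosomal protein genes, which build the ribosome of the organelle, 4 rose and 5 fell in Nat1-null against wild-type cells, where 37.9% of all genes were called. Mrpl23 fell most, to 4.08 ± 0.18 in Nat1-null cells against 5.52 ± 0.03 in wild-type cells (limma, 2.71-fold, adjusted p = 6.68e-07), and Mrpl10 fell 1.54-fold. Mrps21 rose 1.76-fold and Mrpl50 1.63-fold. In Map3k3 cells with Dox against wild-type cells 2 rose, Mrps6 1.96-fold and Mrps21 1.69-fold, and 20 fell, Mrpl23 3.17-fold and Mrpl47 1.96-fold at their head, where 18.4% of all genes rose and 19.9% fell. Mrps6 was also the one mitochondrial gene called in Map3k3 cells with against without Dox, 1.70-fold, and against EGFP cells, 1.67-fold.

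Of 40 ribosome biogenesis genes 2 rose and 5 fell in Nat1-null against wild-type cells, which is 17.5% of them, against 37.9% of all genes. Nle1, an assembly factor of the large subunit, fell to 2.06 ± 0.02 in Nat1-null cells against 3.45 ± 0.12 in wild-type cells (2.62-fold, limma adjusted p = 2.47e-07), and Nob1, the nuclease that finishes the RNA of the small subunit, fell 2.07-fold. Dkc1, the pseudouridine synthase of ribosomal RNA, rose 1.98-fold and Rrs1 1.66-fold. In Map3k3 cells with Dox against wild-type cells 14 fell, Nle1 4.12-fold and Nob1 2.49-fold, and 1 rose, Dkc1 1.67-fold, with a median of -0.40 over the list; these are 37.5% of the list, against 38.3% of all genes. There 2 of 11 measured RNA polymerase I genes fell, Taf1c 1.78-fold and Polr1e 1.63-fold. None of the biogenesis genes was called in Map3k3 cells with Dox against those without Dox or against EGFP cells, where limma gave 12 and 15 of 40 (30% and 37.5%) as lower with no fold minimum, against 21.8% and 23.5% of all genes.

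Of 13 regulators of ribosomal protein expression 4 rose and 1 fell in Nat1-null against wild-type cells, which is 38.5% of them, against 37.9% of all genes. Rps6kb2, an S6 kinase, rose 2.63-fold and Yy1, a transcription factor, 1.60-fold. Mycn, the Myc family gene of embryonic stem cells, read 3.70 ± 0.08 in Nat1-null cells and 5.55 ± 0.14 in wild-type cells, a fall of 3.58-fold (limma, adjusted p = 4.08e-08). It fell again in Map3k3 cells with Dox, to 2.37 ± 0.19 against 3.47 ± 0.07 without Dox and 3.55 ± 0.14 in EGFP cells (2.15-fold and 2.27-fold), while Myc rose 1.72-fold and 1.79-fold. Against wild-type cells Mycn fell 9.07-fold and Mycl 2.98-fold in Map3k3 cells with Dox, and Rps6kb2 rose 1.93-fold and Myc 1.84-fold. Among 5 chaperones that carry newly made ribosomal proteins, Tsr2, which carries Rps26, rose 2.02-fold in Nat1-null cells and fell 1.60-fold in Map3k3 cells with Dox both against those without Dox and against EGFP cells, and Pdcd2 fell 1.56-fold in Map3k3 cells with Dox against wild-type cells.

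**Figure D5:**
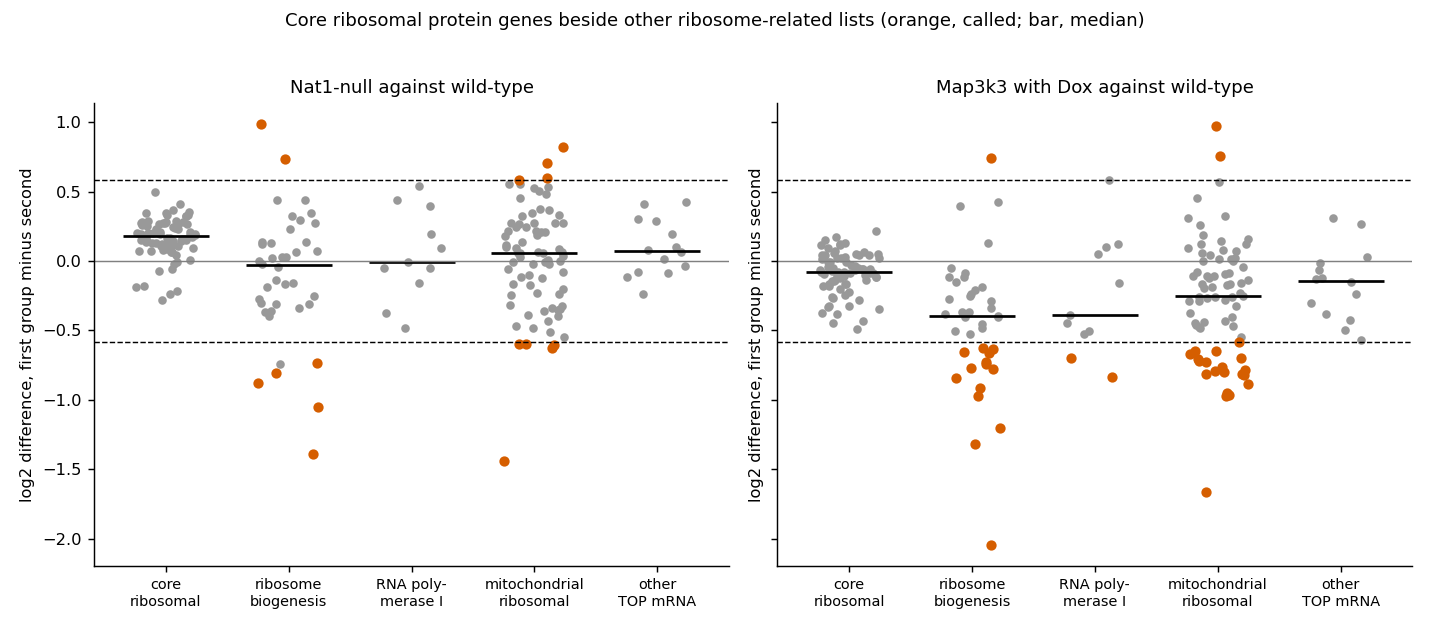
Log2 difference (y axis) of the core ribosomal protein genes and 4 other lists (x axis) in Nat1-null against wild-type cells on the left and Map3k3 cells with Dox against wild-type cells on the right; orange points are called genes, bars medians and dashed lines 1.5-fold. No core point is orange. On the right 14 of 40 biogenesis genes and 20 of 77 mitochondrial ribosomal protein genes lie below the lower dashed line as called. Of all genes tested 38.3% were called in that comparison and 19.9% fell.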

How the data were processed

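Total RNA of 15 samples was hybridised to single-colour (Cy3) 60-mer arrays. Spot intensities were background-subtracted and processed by Agilent Feature Extraction 11.5.1.1 (protocol GE1_1105_Oct12), per the file headers. The log2 values that the authors deposited differed by at most 0.00558 from log2 processed intensity minus the array's 75th percentile, which was computed here from the scanner files and used throughout. Control spots and outlier flags were left out, and no spot was saturated. A probe was kept when every array of some group flagged it as well above background, and the brightest kept probe stood for its gene, which left 14441 genes. Probes were named through RefSeq records (28331 of 55681 probes).

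In R 4.3.3, limma 3.58.1 fitted 1 mean per group over all 15 arrays (10 residual degrees of freedom), with Benjamini-Hochberg adjustment over all genes. A gene was called at adjusted p under 0.05 and at least 1.5-fold. All adjusted p-values in the text come from limma, and the number of arrays limits the precision. The fit was tested on simulated data with independent noise on each array and no slide, row or replicate effect, so that test does not cover such effects. The genes to name were, by rule, the called members with the largest differences, the stalk genes, the paralogs with their partners, Eif4g2, Map3k3 and the most changed called genes of each pathway list. Single results of some genes are not reported here. The members and lists were chosen with earlier results of these data known.

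Same-numbered samples deviated together in the comparisons within the null background (correlations of 0.107 to 0.631) and not in those against wild-type cells (-0.028 to 0.064), so the numbers were taken to pair samples only within the null background. The main fit had no term for this pairing, so its p-values ignore it. Only the block by replicate number took it into account. Alternatives were other scalings, background corrections, probe filters, blocks by slide, row or replicate number, and leaving out each array.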

Additional observations from a re-analysis of the deposited data

How the results depend on the processing

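Rpl39l was called under all 18 alternatives in its 4 comparisons and Rpl3l under all 18 in Nat1-null against wild-type cells. Rps4l was called there under 17 and gave 0.58 under quantile normalization, under the fold minimum. The 18 include the main fit with no fold minimum, under which a called gene stays called by construction. Quantile normalization left 1 gene higher in Nat1-null cells and 1 (Rps4l) higher in Map3k3 cells with Dox against wild-type cells. It gave medians over the members of 0.0085 (Nat1-null against wild-type), -0.035 (Map3k3 with against without Dox), -0.038 (Map3k3 against EGFP) and -0.022 (Map3k3 with Dox against wild-type). Spike-in scaling gave 0.053, -0.063, -0.10 and -0.21 in these comparisons, and -0.14 and -0.19 for EGFP with Dox and Map3k3 without Dox against Nat1-null cells, with 3 genes lower in Map3k3 cells with Dox against wild-type cells (Rpl39l and Rpl26 among them). With no fold minimum the counts were 39 higher and 4 lower, 32 lower, 51 lower, and 3 higher and 17 lower in the same 4 comparisons. Over 18 settings, with the main one among them, these ranged over 4 to 44 higher and 2 to 14 lower, 1 to 45 lower, 1 to 61 lower, and 1 to 5 higher and 3 to 28 lower. Row as a block gave 4 genes higher in Nat1-null cells (with Rpl31 and Rpl7l1). In Map3k3 cells with Dox against wild-type cells the mean of a gene's probes gave 2 genes lower (with Rpl26). Slide as a block, which rests on replicate 3 of the EGFP cells, gave a median of -0.0037 there. The cause was not tested.

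With the replicate number as a block, 2 genes were lower in Map3k3 cells with Dox against wild-type cells (with Rpl10l), where the numbers do not pair the samples; the block changed no other count of called members. With 1 array left out, 2 to 4 genes were higher and 1 lower in Nat1-null cells, 1 to 3 lower with against without Dox, 1 to 2 lower in Map3k3 against EGFP cells, and 0 to 1 higher and 1 to 2 lower in Map3k3 cells with Dox against wild-type cells. No called gene changed sign. The medians of EGFP with Dox and Map3k3 without Dox against Nat1-null cells, which have no call, changed sign under quantile normalization (0.020 and 0.015), the first also with slide as a block (0.023) without replicate 2 of the EGFP cells (0.019) and without replicate 1 of the Nat1-null cells (0.0088). The normexp correction planned on mean signals was not run, as the columns used here hold median signals; normexp on median signals, chosen after seeing the data, kept the called counts. Arrays of 3 per group, probes that do not separate near-identical copies, and marker levels that differ between groups limit what these values show.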

Other observations

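Rpl10l was highest in the second replicate of all 5 groups, at 4.34 in Map3k3 cells with Dox, 4.47 in EGFP cells with Dox, 4.71 in Map3k3 cells without Dox, 5.68 in Nat1-null cells and 4.47 in wild-type cells. The gap to the next array of the group was 0.62, 0.63, 1.02, 1.40 and 0.03 in this order. Averaged over groups, replicate 2 lay 0.86 above the mean of replicates 1 and 3.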
